A study of Mus musculus with 2 samples.

Results

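The genes of the epidermal desmosome and tight junction described here are Dsp, Jup, Pkp1, Perp, Dsg1a, Dsg3, Dsc3, Cldn1 and Cldn4. They were taken by symbol from the count tables of mouse dorsal skin, where they are 9 of 33904 gene rows, and each symbol occurs in 1 row. Their transcripts were measured in 2 single-cell RNA-seq libraries, 1 called Ctrl and 1 called AD (atopic dermatitis), both from female C57BL/6J mice aged 7 weeks whose back hair was removed 24 h before the first application. Ctrl skin received 100% ethanol on an area of 2 cm by 2 cm each day, and AD skin received 4.5 nmol MC903 per application in ethanol in the same way. MC903 (calcipotriol) is an analogue of vitamin D that brings about AD-like dermatitis when put on mouse skin, so the vitamin D receptor of the keratinocytes is a direct target of the treatment. Samples were taken on day 10, and the number of mice behind a library is not stated. With 1 library per condition no test between the conditions is possible, and the 95% intervals given throughout reflect the counting of molecules alone.

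The epidermis is a layered sheet of keratinocytes (KCs). Basal KCs, which make the keratins Krt5 and Krt14, divide and give rise to suprabasal KCs, which switch to Krt1 and Krt10 and move outward until they form the cornified layer. Desmosomes rivet neighbouring KCs together: cadherins of the desmoglein and desmocollin families bridge the gap between cells, the armadillo proteins plakoglobin and plakophilin bind the cadherins from inside, and desmoplakin ties the plaque to the keratin filaments. Tight junctions of the granular layer seal the space between the cells, and claudins are the proteins that form the seal.

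The plaque is represented by Dsp (desmoplakin, ENSMUSG00000054889, chr13:38151294-38198577, plus strand), Jup (plakoglobin, ENSMUSG00000001552, chr11:100368958-100397763, minus strand) and Pkp1 (plakophilin 1, ENSMUSG00000026413, chr1:135871395-135919207, minus strand). Perp (ENSMUSG00000019851, chr10:18845020-18857073, plus strand) is a small membrane protein of desmosomes and a target of the transcription factor p63. Dsg1a (ENSMUSG00000069441) and Dsg3 (ENSMUSG00000056632) are desmogleins, which in skin are known for opposite gradients, and Dsc3 (ENSMUSG00000059898) is a desmocollin. Cldn1 (ENSMUSG00000022512, chr16:26356642-26371841, minus strand) is a claudin without which mouse skin loses water, and Cldn4 (ENSMUSG00000047501, chr5:134945119-134946934, minus strand) is a claudin of the granular layer. Positions are those of the GENCODE annotation of GRCm38, the assembly also called mm10, and are given for 6 of the 9 genes.

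The promoters of the claudins are shown because, of this pair, Cldn4 passed the 2-fold limit upward in AD basal KCs and Cldn1 did not pass it in either direction, as described further on. The pair was thus chosen after its values were seen, and Cldn4 was lower in AD in 3 of 14 alternative analyses. Whether the motifs bear on either level was not tested. The windows hold the 250 bases before the start of the gene in RefSeq (GRCm38.p6), chr5:134946935-134947184 for Cldn4 and chr16:26371840-26372089 for Cldn1, both on the minus strand and written 5′ to 3′. Capitals mark matches, on either strand, to TGANTCA (the motif of AP-1) and AGGTCA (the core to which the vitamin D receptor and its relatives bind).
Cldn4: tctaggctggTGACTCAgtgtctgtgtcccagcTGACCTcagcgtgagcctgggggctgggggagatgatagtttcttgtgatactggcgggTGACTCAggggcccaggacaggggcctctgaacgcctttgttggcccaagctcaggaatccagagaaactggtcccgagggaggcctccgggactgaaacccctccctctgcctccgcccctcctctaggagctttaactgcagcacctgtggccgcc
Cldn1: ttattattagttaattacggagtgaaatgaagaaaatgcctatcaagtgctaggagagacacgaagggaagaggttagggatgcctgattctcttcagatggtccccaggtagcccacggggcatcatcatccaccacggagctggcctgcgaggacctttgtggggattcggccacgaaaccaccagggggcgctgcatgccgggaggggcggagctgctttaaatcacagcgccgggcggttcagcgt

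The Cldn4 window held TGANTCA at 2 places, 240 and 158 bases before the start, and AGGTCA at 1 place, 217 bases before it, and none of these matches overlap. The Cldn1 window held neither, and neither window held AACNGGTT, the motif of the grainyhead-like factors of the epidermis. Of 32851 windows of this length, 6.75% held TGANTCA, 14.02% held AGGTCA and 1.79% held AACNGGTT. Windows were read for 4 of the 9 genes, and those of Dsp and Jup held none of the 3 motifs. The other members were not read, and nothing is said of their motifs. A match describes the letters of the window and is not a bound site.

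The Ctrl library had 12598 barcodes and 125184653 UMIs (unique molecular identifiers, each counting 1 transcript molecule), and the AD library had 8778 barcodes and 76106062 UMIs. After filtering, 11399 Ctrl cells with a median of 7813 UMIs and 8179 AD cells with a median of 6330 UMIs remained, and 29 cell barcodes were shared by the 2 sets. Ctrl had 1736 epithelial cells (15.2%) and AD had 413 (5.05%). These counts leave out an unnamed cluster of 525 Ctrl cells with basal markers. Levels are in CPM, for which the summed UMIs of a gene are divided by the summed UMIs of the same cells and scaled in the usual way. Shares are the percentage of cells with at least 1 UMI of the gene. The junction genes took no part in the clustering.

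Basal KCs numbered 202 in Ctrl and 335 in AD, and suprabasal KCs numbered 306 in Ctrl and 1 in AD. Cell types rest on marker genes and are to be read as basal-like, fibroblast-like and so on. The keratins are among the markers that gave the names, so their levels describe the classes and are no separate check. In Ctrl, Krt10 was at 1151 CPM in basal and 30428 CPM in suprabasal KCs, and Krt14 was at 6036 and 368 CPM. A suprabasal comparison between the libraries was therefore not possible, and for the single AD cell no level is given. A further 147 Ctrl cells and 21 AD cells, 8.47% and 5.08% of the epithelial cells, lay in 3 sub-clusters that held Krt1 and Krt10 among their markers but were led by genes of fibroblasts or T cells, or held fibroblast markers in most cells, and were left unnamed by a rule revised after seeing them. The AD cells among them had 0 UMIs of Krt1 and 0 of Dsg1a. Basal KCs came from different sub-clusters in the 2 libraries. Those of Ctrl were mostly a sub-cluster of 105 cells led by Ccl27a and one of 85 cells led by Sox6. Those of AD were a sub-cluster of 186 cells led by Dkk3, which also carried Sox9, Lhx2 and Tbx1 as the outer root sheath of the hair follicle does, and one of 146 cells led by Cyp24a1. Cyp24a1 encodes the enzyme that breaks down vitamin D and is a classical target of its receptor. The unnamed cluster of 525 Ctrl cells with basal markers, which had no AD cell, was not used as basal KCs.

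Within Ctrl skin, Dsp, Jup, Pkp1, Perp, Dsg1a and Cldn4 were at least 2-fold higher in suprabasal than in basal KCs, Dsg3 was lower, and Dsc3 and Cldn1 lay within the 2-fold limit. Thus 6 of 9 genes were past the limit upward, where 11.1% of the 8727 genes with at least 10 CPM in either class were, and 1 of 9 downward, where 26.5% were. The median log2 ratio was 1.37 for the 9 genes and -0.42 for the 8727 genes. Basal cells had a median of 11430 UMIs per cell and suprabasal cells 20628.

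Among the plaque genes, Dsp had 3746 UMIs in Ctrl basal KCs, 1462 CPM, with a UMI in 97.0% of cells. In Ctrl suprabasal KCs it had 28335 UMIs, 4314 CPM, in 97.1% of cells, a log2 ratio of 1.56 (1.51 to 1.61). The share of cells was thus alike while the level was higher. Jup went from 333 CPM (852 UMIs) to 862 CPM (5661 UMIs), a log2 ratio of 1.37. Pkp1 stood at 385 CPM (985 UMIs) in basal and 837 CPM (5500 UMIs) in suprabasal KCs, a log2 ratio of 1.12. Perp stood at 3695 and 27192 UMIs, and its log2 ratio was 1.52. These 4 genes, which have different places in the desmosome, had ratios between 1.12 and 1.56.

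The cadherins did not move together. Dsg1a, the desmoglein of the upper layers, was at 174 CPM (446 UMIs, 53.0% of cells) in basal and 1743 CPM (11449 UMIs, 94.8% of cells) in suprabasal KCs, 10.0-fold higher, with a log2 ratio of 3.32 (3.19 to 3.46). Dsg3, the desmoglein of the lower layers, was at 176 CPM (450 UMIs, 69.8% of cells) in basal and 18.1 CPM (119 UMIs, 20.6% of cells) in suprabasal KCs, with a log2 ratio of -3.28 (-3.58 to -2.98). Dsc3 was at 637 CPM in basal and 932 CPM in suprabasal KCs, a log2 ratio of 0.55, although its share of cells went from 95.05% to 83.0%. The difference between the desmogleins was seen also after each cell was thinned to 1000 UMIs, with Dsg1a in 13.3% of basal and 72.4% of suprabasal cells and Dsg3 in 15.2% and 2.39%.

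The claudins differed from each other as well. Cldn1 was at 232 CPM (594 UMIs) in basal and 234 CPM (1534 UMIs) in suprabasal KCs, a log2 ratio of 0.01 (-0.13 to 0.15). Cldn4 was at 11.3 CPM (29 UMIs, 9.41% of cells) in basal and 253 CPM (1660 UMIs, 67.0% of cells) in suprabasal KCs, 22.3-fold higher, with a log2 ratio of 4.48 (3.95 to 5.06).

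**Figure D1:**
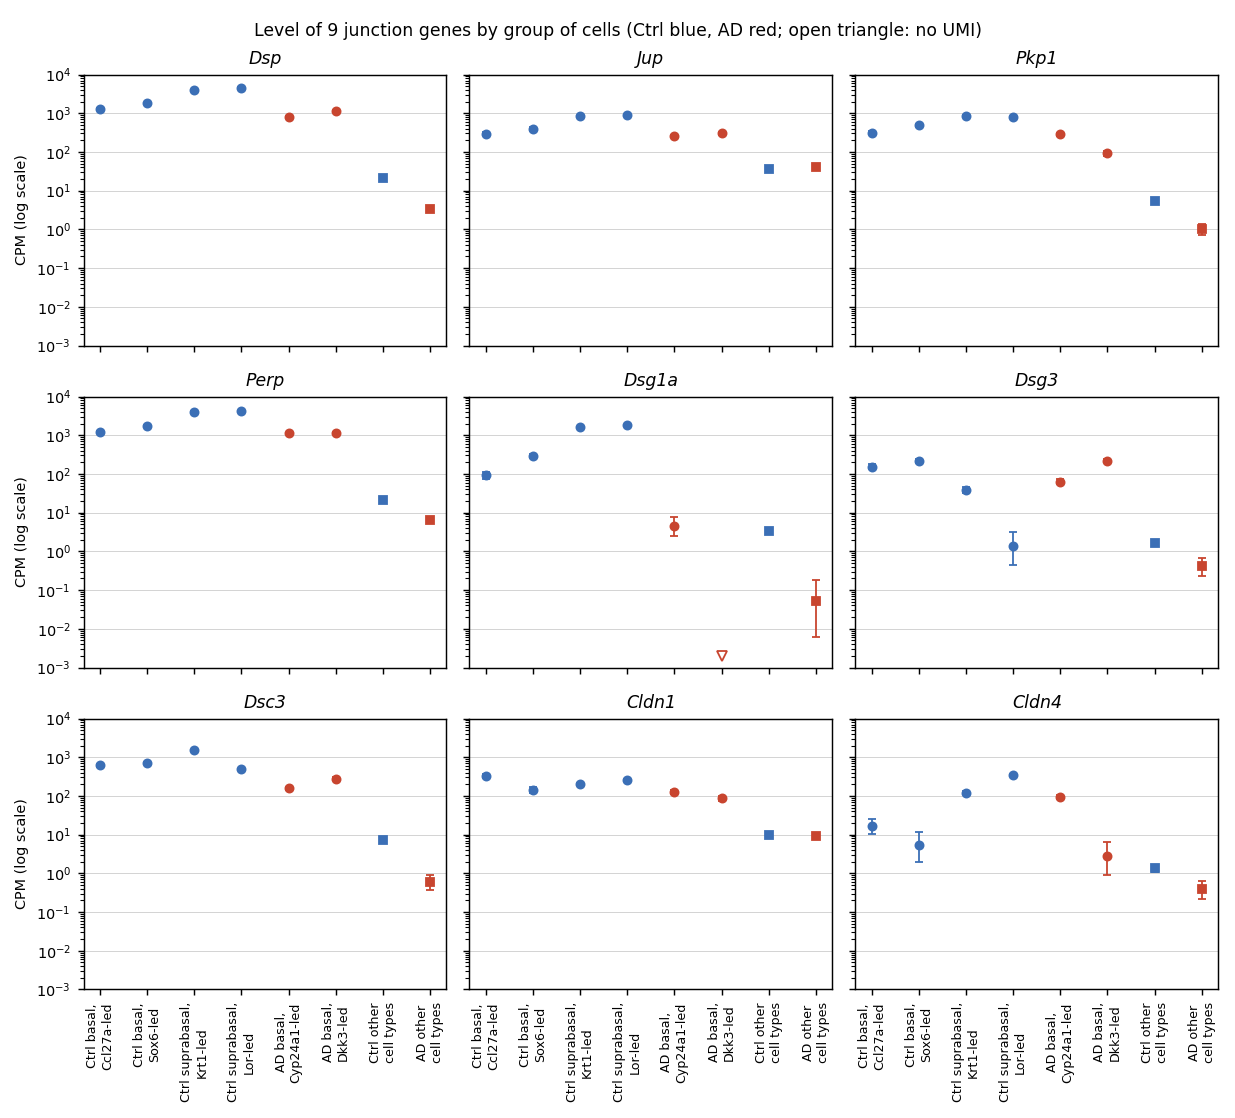
Level of each of the 9 genes (CPM, log axis, 1 panel per gene) in the Ctrl basal and suprabasal sub-clusters, the AD basal sub-clusters and all other named cell types of each library. Points are levels from summed UMIs, bars are exact Poisson 95% intervals and the open triangle stands for no UMI: Dsg1a goes from 1832 CPM in the Lor-led Ctrl cells to no UMI in the Dkk3-led AD cells.

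The suprabasal KCs of Ctrl fell into 2 sub-clusters, 174 cells led by Krt1 and 132 cells led by Lor (loricrin, a protein of the cornified envelope). From the Krt1-led to the Lor-led cells, 1 of the 9 genes was at least 2-fold higher, where 9.99% of 7808 genes were, and 2 were lower, where 19.8% were. Cldn4 was at 122 CPM in the Krt1-led and 356 CPM in the Lor-led cells, a log2 ratio of 1.54 (1.37 to 1.71), and its share of cells was 49.4% and 90.2%. Dsc3 was at 1495 CPM in the Krt1-led and 488 CPM in the Lor-led cells, a log2 ratio of -1.62 (-1.70 to -1.54). Dsg3 had 114 UMIs in the Krt1-led and 5 UMIs in the Lor-led cells, 39.4 and 1.36 CPM. Among the 4 basal and suprabasal sub-clusters of Ctrl described here, Dsc3 was thus highest in the Krt1-led cells and lowest in the Lor-led cells, with 617 CPM in the Ccl27a-led and 705 CPM in the Sox6-led basal cells. The other 6 genes had ratios between -0.08 (Pkp1) and 0.33 (Cldn1), so that Dsp, Jup, Perp and Dsg1a stood at a like level in both sub-clusters.

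The basal sub-clusters of Ctrl also differed. Dsg1a was at 91.6 CPM in the Ccl27a-led and 286 CPM in the Sox6-led cells, a log2 ratio of 1.64 (1.33 to 1.96), where 6.46% of 8793 genes were at least 2-fold higher. Krt10 was at 164 CPM and 2349 CPM in the same cells, so that Dsg1a was higher where Krt10 was higher. Cldn1 was at 325 CPM in the Ccl27a-led and 143 CPM in the Sox6-led cells, with a log2 ratio of -1.19 (-1.46 to -0.92). Cldn4 had 22 UMIs in the former and 6 UMIs in the latter, and a ratio of -1.69 (-3.29 to -0.35). These were the 2 members past the limit downward, where 7.48% of all genes were.

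**Figure D2:**
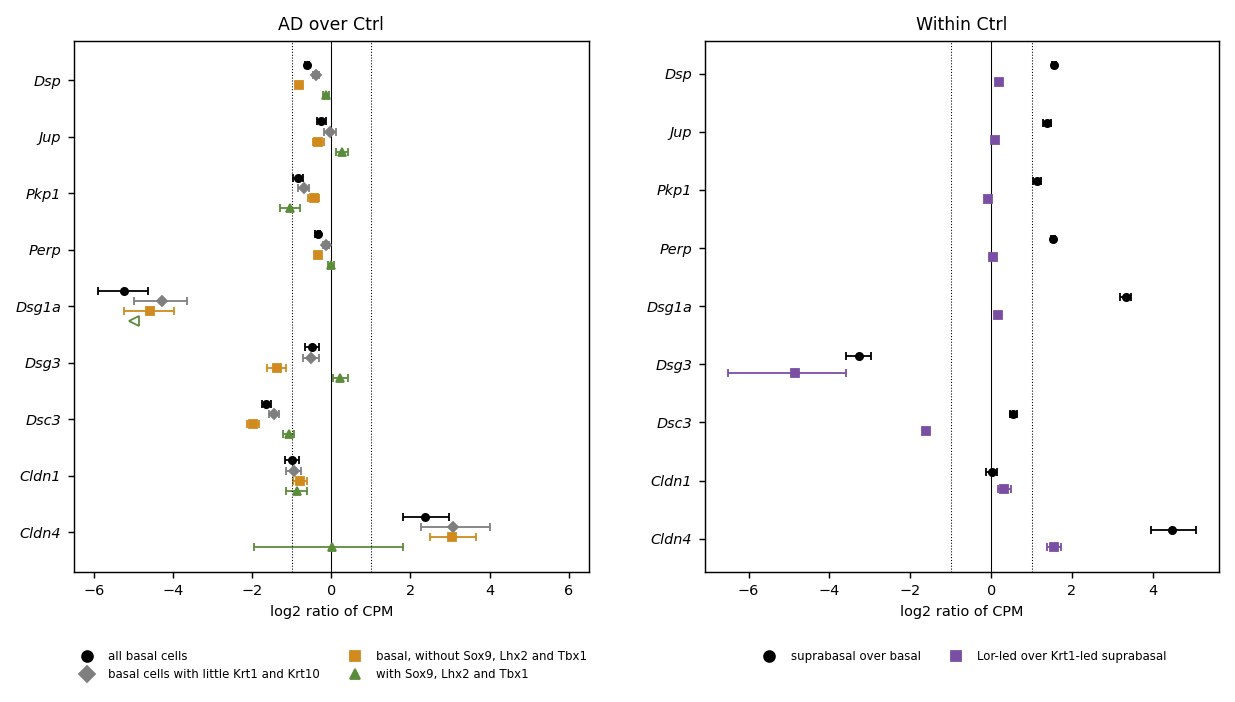
Log2 ratio of CPM for each of the 9 genes with 95% counting intervals, AD over Ctrl on the left (all basal cells, and 3 narrower choices of cells) and within Ctrl on the right. Dotted lines mark the 2-fold limit and the open triangle is the limit that 3 counts allow: Dsg1a and Dsc3 lie left of the limit in all 4 choices of cells, and Cldn4 lies right of it in 3 of them.

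In basal KCs of AD skin compared with Ctrl, Cldn4 was higher and Dsg1a and Dsc3 were lower. At the 2-fold limit, 1 of 9 genes was higher, where 6.21% of 8841 genes were, and 2 of 9 were lower, where 6.61% were. The median log2 ratio was -0.61 for the 9 genes and -0.02 for all 8841. The median basal cell had 11430 UMIs (Ctrl) or 11351 UMIs (AD). The keratins moved as well, Krt5 by a log2 ratio of -1.78, Krt14 by -0.75, Krt1 by -6.39 and Krt10 by -5.85, and the AD cells were higher in Sox9 (1.03), Lhx2 (2.92) and Tbx1 (3.14). Their part in the junction ratios was not tested in this comparison, and narrower choices of cells follow further on.

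Dsg1a had 446 UMIs in the Ctrl and 23 UMIs in the AD basal KCs, 174 and 4.65 CPM. It was found in 53.0% of the Ctrl cells (45.8 to 60.0%, Clopper-Pearson) and 2.69% of the AD cells (1.24 to 5.04%), and its level was 37.4-fold lower in AD, a log2 ratio of -5.23 (-5.90 to -4.62). Over all kept cells it had 15822 UMIs in Ctrl and 114 UMIs in AD, 150 and 1.85 CPM, and of the 114 UMIs 55 were in the single suprabasal cell. In such a sum over the library, fewer cells of a type and less RNA per cell cannot be told apart. Mouse has near-identical copies of this gene, Dsg1b and Dsg1c, between which reads can be split, so the count of Dsg1a alone is uncertain. Summed over the 3 copies there were 489 UMIs in Ctrl and 50 UMIs in AD, a log2 ratio of -4.24 (-4.69 to -3.82), and between the Ctrl layers the summed ratio was 3.35.

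Of the other cadherins, Dsc3 passed the limit and Dsg3 did not. Dsc3 had 1632 UMIs (637 CPM) in Ctrl and 1010 UMIs (204 CPM) in AD basal KCs, 3.12-fold lower, with a log2 ratio of -1.64 (-1.76 to -1.53). Its share of cells was 95.05% in Ctrl and 79.7% in AD, or 44.4% and 18.9% at 1000 UMIs per cell. Dsg3 had 450 UMIs (176 CPM) in Ctrl and 616 UMIs (125 CPM) in AD, a log2 ratio of -0.50 (-0.67 to -0.32), and its sign was the other one in 4 of 14 alternative analyses.

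Of the claudins, Cldn4 passed the limit and Cldn1 did not. Cldn4 had 29 UMIs (11.3 CPM) in Ctrl and 290 UMIs (58.6 CPM) in AD basal KCs, 5.18-fold higher, with a log2 ratio of 2.37 (1.82 to 2.98), and its share of cells was 9.41% in Ctrl and 22.4% in AD. Its level in AD basal KCs remained below the 253 CPM of Ctrl suprabasal KCs. Cldn1 had 594 UMIs (232 CPM) in Ctrl and 578 UMIs (117 CPM) in AD, a log2 ratio of -0.99 (-1.16 to -0.82), and was the member closest to the limit without passing it.

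The plaque genes lay within the limit. Dsp was at 957 CPM (4734 UMIs) in AD basal KCs, with a log2 ratio to Ctrl of -0.61 (-0.67 to -0.55). Pkp1 was at 214 CPM (1057 UMIs) in AD, a ratio of -0.85, and its share of cells was 92.1% in Ctrl and 61.2% in AD. Jup was at 280 CPM (1387 UMIs) in AD, a ratio of -0.25 (-0.37 to -0.12), and Perp had 5622 UMIs, a ratio of -0.34 (-0.40 to -0.28). Basal KCs with 6 or more of the 9 genes detected made up 84.7% of the Ctrl and 55.8% of the AD cells, with medians of 7 and 6 genes per cell.

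**Figure D3:**
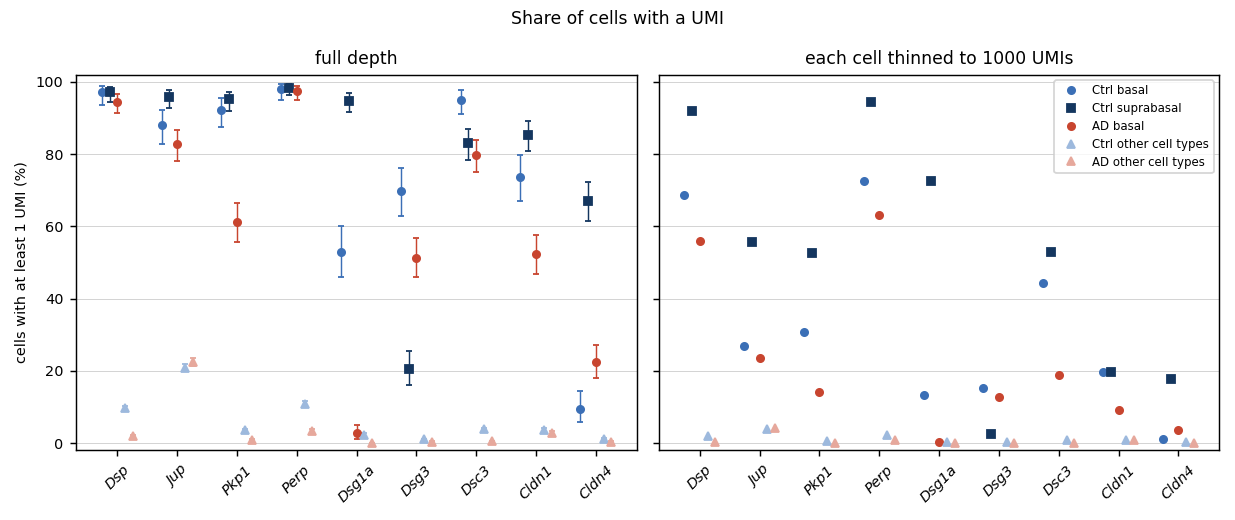
Share of cells with at least 1 UMI of each gene (percent) in Ctrl basal, Ctrl suprabasal and AD basal KCs and in all other named cell types of each library, at full depth on the left with Clopper-Pearson 95% intervals and after thinning each cell to 1000 UMIs on the right. Dsg1a stands at 53.0% in Ctrl basal and 2.69% in AD basal cells at full depth, and at 13.3% and 0.221% when thinned.

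The AD basal KCs were of 2 kinds, and 3 of the members differed between them. In the 146 Cyp24a1-led cells Cldn4 had 280 UMIs, 91.8 CPM, with a UMI in 47.9% of cells, and in the 186 Dkk3-led cells it had 5 UMIs, 2.73 CPM, in 1.61% of cells. The log2 ratio of Cyp24a1-led to Dkk3-led cells was 5.07 (3.83 to 6.71). Pkp1 was also higher in the Cyp24a1-led cells, at 285 against 92.9 CPM, a ratio of 1.62 (1.38 to 1.86). These were 2 of the 8 members with at least 10 CPM in either kind, where 13.0% of 8922 genes were at least 2-fold higher. Dsg3 was the 1 member past the limit downward, where 20.1% of all genes were, with 63.6 CPM (194 UMIs) in the Cyp24a1-led and 221 CPM (404 UMIs) in the Dkk3-led cells, a ratio of -1.79 (-2.05 to -1.54). Dsg1a had 14 UMIs in the Cyp24a1-led cells, in 4.79% of them, and 9 UMIs in the 3 AD basal cells outside both kinds. In the Dkk3-led cells it had 0 UMIs, in 0 of 186 cells, which allows a share of cells with a UMI of up to 1.61% at this depth by the limit of 3 counts. Perp was the member closest between the kinds, at 1127 and 1131 CPM. The Cyp24a1-led cells were also the deeper ones, with a median of 22155 UMIs per cell against 8015.5, and at 1000 UMIs per cell Cldn4 was found in 7.72% and 0.265% of cells.

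Cells were then compared across the libraries by the 3 marker genes Sox9, Lhx2 and Tbx1, which did not make their sub-clusters alike. Among basal cells without Sox9, Lhx2 and Tbx1, 149 in AD and 200 in Ctrl, Cldn4 was higher by a log2 ratio of 3.05 (2.48 to 3.66), where 6.12% of 8711 genes were at least 2-fold higher. Dsg1a (-4.57), Dsc3 (-1.98) and Dsg3 (-1.37) were lower, where 10.6% of genes were. Cells with Sox9, Lhx2 and Tbx1 were 186 in AD, all of the Dkk3-led basal sub-cluster, and 299 in Ctrl, mostly outer root sheath cells. AD cells in outer root sheath sub-clusters were left out. Of the 8 members measured, 0 were higher, where 6.93% of 9270 genes were, and 3 were lower, where 15.0% were. Dsg1a had 155 UMIs (52.2 CPM) in these Ctrl cells and 0 UMIs in AD, at least 31.85-fold lower by the limit of 3 counts in the AD cells. Dsc3 (-1.08) and Pkp1 (-1.03) were the others. Summed over Dsg1a, Dsg1b and Dsg1c, the 186 AD cells had 1 UMI and the Ctrl cells 213 UMIs (71.7 CPM). With the AD outer root sheath cells counted, the AD sum was 27 UMIs (13.8 CPM). Cldn4 had 8 UMIs in Ctrl and 5 UMIs in AD, both under the 10 CPM that a comparison required.

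**Figure D4:**
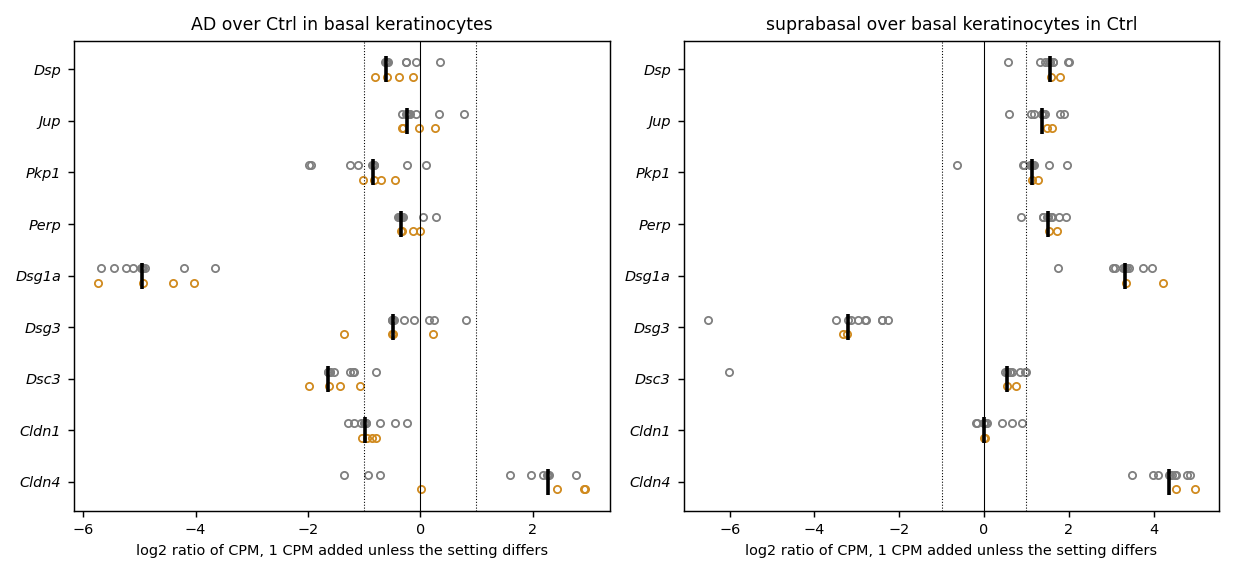
Log2 ratio of each gene (1 CPM added) in AD over Ctrl basal KCs on the left and in suprabasal over basal Ctrl KCs on the right. The black bar is the reported analysis, grey and orange circles are alternative analyses, the orange ones added after the values were seen: Dsg1a lies left of the dotted 2-fold limit in all 14 alternatives on the left, and Cldn4 lies on both sides of 0.

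Cells were also chosen by their keratins, which did not make Krt1 and Krt10 alike between the libraries. In basal cells in which Krt1 and Krt10 made up at most 5% of the UMIs of the 4 keratins, 322 in AD and 149 in Ctrl, Dsg1a had a log2 ratio of -4.28 (-4.98 to -3.65), Dsc3 of -1.44 and Cldn4 of 3.08. Dsp (-0.38), Jup (-0.02), Perp (-0.13) and Pkp1 (-0.70) were closer to 0 than among all basal cells. In the same cells Krt1 was still at 40.7 CPM (Ctrl) and 4.53 CPM (AD), and Krt10 at 71.0 and 17.9 CPM. When epithelial cells of every class were chosen cell by cell by their keratin UMIs in place of clusters, 955 Ctrl and 314 AD cells were basal. Of the Ctrl cells 100 were Ccl27a-led and 74 Sox6-led, so that most were of other epithelial classes. The AD cells included 133 Cyp24a1-led and 143 Dkk3-led cells. Krt1 (-4.23) and Krt10 (-2.33) were still lower in AD by this choice. Dsg1a (-3.84), Dsc3 (-1.18) and Cldn4 (2.92) were again past the limit, and Dsp (-0.08), Jup (0.33), Pkp1 (0.11), Perp (0.05), Dsg3 (0.25) and Cldn1 (-0.24) lay between -0.24 and 0.33. Dsg1a was lower, with the limit passed, in 14 of 14 alternative analyses, and Dsc3 in 13 of 14. These alternatives are not independent, since some kept the same cells and changed the calculation only. Alternatives with too few basal cells gave no value and are not among the 14. Cldn4 was higher in 11 of the 14 and past the limit in 10 of these. In the other 3 it was lower in AD, at -0.94 with the junction genes put back into the clustering, -0.71 with every deposited barcode and -1.36 without called doublets. In those analyses 6, 0 and 0 of the 146 Cyp24a1-led cells were named basal, the cells that held 280 of the 290 Cldn4 UMIs of AD basal KCs. The Ctrl basal cells were also others in the first of them, with 0 Ccl27a-led and 0 Sox6-led cells, and in the second, with 4 and 72. The part of either change in the reversal was not tested.

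The rest of the desmosome was read from a list of 11 further genes. In AD over Ctrl basal KCs 6 of them had at least 10 CPM in either group, of which 0 were at least 2-fold higher and 4 were lower, against 6.21% and 6.61% of all 8841 genes. These were the desmoglein copy Dsg1b (-1.62), the upper-layer desmocollin Dsc1 (-1.13) and the plakins Ppl (periplakin, -1.17) and Evpl (envoplakin, -1.68), which build the cornified envelope. Among basal cells without Sox9, Lhx2 and Tbx1, where 10.6% of all genes were lower, Ppl (-1.25) and Evpl (-1.95) were again lower, and Dsg1b (-1.03, within the limit once 1 CPM was added) and Dsc1 (-0.48) were not past the limit. Among cells with these genes Dsg1b was lower, with 58 and 1 UMIs, and Ppl (0.17) and Evpl (-0.62) lay within the limit. Between the Ctrl layers, 5 of the 7 measured genes were higher in suprabasal KCs, where 11.1% of all genes were. Dsc1 stood at 23.8 and 598 CPM, Dsg1b at 16.8 and 201 CPM, Ppl at 178 and 622 CPM and Evpl at 58.9 and 314 CPM. Cdsn, which encodes the corneodesmosin of the cornified layer, had 2 UMIs in basal and 2943 UMIs in suprabasal KCs. Dsg2, a desmoglein of simple epithelia and the lower epidermis, was the 1 gene lower (-4.97) and was named after its value was seen. The layer comparison and the AD comparison share the Ctrl basal cells.

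Of 22 further tight junction genes, 13 were measured in the AD comparison, with 1 higher and 1 lower, against 6.21% and 6.61% of all genes. F11r, which encodes the junctional adhesion molecule JAM-A, was at 86.3 CPM (Ctrl) and 178 CPM (AD), a log2 ratio of 1.05 (0.83 to 1.27). It was not past the limit in either comparison split by Sox9, Lhx2 and Tbx1, with ratios of 0.49 (0.24 to 0.73) without and 0.45 (0.28 to 0.62) with them. Pard6b, a polarity gene, was at 32.8 and 10.5 CPM, a ratio of -1.64 (-2.17 to -1.13), or -1.56 among cells without Sox9, Lhx2 and Tbx1 and -0.996, within the limit, among cells with them. Lsr (-0.38) and Pard3 (-0.27), the others of the most abundant in KCs, lay within the limit. Between the Ctrl layers 5 of 15 measured genes were higher and 1 was lower, against 11.1% and 26.5% of all genes, and Lsr, an organiser of junctions where 3 cells meet, stood at 38.3 CPM in basal and 159 CPM in suprabasal KCs. Of 9 adherens junction genes, the AD comparison had 1 higher and 0 lower. Afdn (afadin) was at 183 CPM (Ctrl) and 414 CPM (AD), a ratio of 1.17 (1.03 to 1.32), while Cdh1 (E-cadherin, -0.42) and Ctnna1 (0.02) lay within the limit. The ratio of Afdn was -0.38 (-0.57 to -0.18) among cells without Sox9, Lhx2 and Tbx1 and 1.48 (1.36 to 1.60) among cells with them, so that it passed the limit in the latter comparison and not in the former. Of 6 gap junction genes, Gjb2 (connexin 26) was higher at 1.71 (1.05 to 2.43), from 8.59 to 28.1 CPM, and 0 were lower. Gjb2 was higher also among cells without Sox9, Lhx2 and Tbx1 (2.33) but lower among cells with them (-7.41), with 825 UMIs (Ctrl) and 3 UMIs (AD). In the latter comparison the Ctrl cells held an outer root sheath sub-cluster of 63 cells with Gjb2 among its leading genes. Over all basal KCs Gja1 had a ratio of 0.63.

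Genes that mark the state of the KCs were read from 3 short lists, again to be set against 6.21% of all genes higher and 6.61% lower. Of 6 transcription factors of epidermal differentiation, Grhl3 was lower in AD basal KCs (-1.78, from 15.2 to 4.45 CPM) and 0 were higher, with Klf4 at 0.27 and Grhl1 at -0.19. Of 6 genes of activated KCs, 4 were measured. Krt6a stood at 31.2 CPM (Ctrl) and 248 CPM (AD), Krt16 at 25.4 and 128 CPM and Sprr1b at 7.81 and 66.7 CPM, all past the limit, and S100a8 was lower (-2.16) with 58 and 25 UMIs. These 4 were past the limit in the same directions among cells without Sox9, Lhx2 and Tbx1, whereas Krt6a (-0.21) and Krt16 (0.30) lay within it among cells with these genes. Of 6 cell cycle genes, 4 were measured, with Mki67 (-1.21) and Cenpf (-1.90) lower and Top2a at -0.75. The unnamed cluster of 525 Ctrl cells, left out of the basal KCs, had Mki67, Cenpf and Top2a among its leading genes. Among cells without Sox9, Lhx2 and Tbx1, Cenpf (-1.25) was the 1 lower gene of 6 measured, with Mki67 at -0.59, and among cells with them 5 of 5 were lower. All 6 were higher in the Cyp24a1-led than in the Dkk3-led cells, where 13.0% of all genes were.

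The same lists between the Ctrl layers, with genes named after their values were seen where the rule for names did not take them, were as follows, where 11.1% of all genes were higher and 26.5% were lower. Of the tight junction genes, Cldn23, Tjp3, Cgn, Lsr and Crb3 were higher in suprabasal KCs and Cldn12 was lower. Of the adherens junction genes, Nectin4 was higher and Cdh3 (P-cadherin, a marker of basal cells) was lower. The connexin genes Gjb2 and Gjb5 were higher, and Gjb2 stood at 8.59 and 99.1 CPM. The transcription factor genes Klf4, Grhl1, Grhl3 and Ovol1 were higher and Grhl2 was lower. Of the genes of activated KCs, Krt6b, Krt16, Sprr1b and S100a9 were higher and S100a8 was lower, and the 4 measured cell cycle genes (Mki67, Top2a, Birc5 and Cenpf) were lower.

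Outside the epithelium the members marked how far their transcripts stood above the background. Epithelial cells accounted for 24.1% (Ctrl) and 9.26% (AD) of all UMIs, and of the UMIs of a member they held 66.4% (Dsg3) to 95.2% (Dsg1a) in Ctrl and 41.7% (Jup) to 98.2% (Dsg1a) in AD. The lowest value in Ctrl belongs to Dsg3, of which 29.2% lay in the unnamed cluster with basal markers. That cluster is not counted as epithelial, so the Ctrl percentages are lower than they would be with it. In all other named cell types Krt10 was at 86.7 CPM (Ctrl) and 9.02 CPM (AD), and Krt14 at 31.7 and 12.8 CPM. In CPM, the level of these KC transcripts outside the epithelium was thus higher in the Ctrl library. The KC level of a gene is its CPM over the basal and suprabasal KCs of a library together. As a percentage of it, Krt10 was at 0.390% (Ctrl) and 1.97% (AD) and Krt14 at 1.62% and 0.360%. In AD the KC level of Krt10 (458 CPM) rested mostly on the single suprabasal cell, with 2191 UMIs against 99 in basal KCs. The 2 libraries thus differ in the cells behind the KC level, and these percentages are not compared between them. Dsp was at 21.3 CPM in these Ctrl cells (9.73% of cells) and 3.31 CPM in AD (1.91%). Dsg1a was at 3.45 CPM in Ctrl (2.34% of 8984 cells with a median of 6924.5 UMIs) and had 2 UMIs in AD (0.0425% of 4708 cells with a median of 6882 UMIs). The AD basal KCs, at 4.65 CPM of Dsg1a, were thus close to the background of the Ctrl library and above that of their own. Cldn4 was at 1.37 CPM (Ctrl) and 0.385 CPM (AD) in the other types, below the levels in basal KCs of either library.

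**Figure D5:**
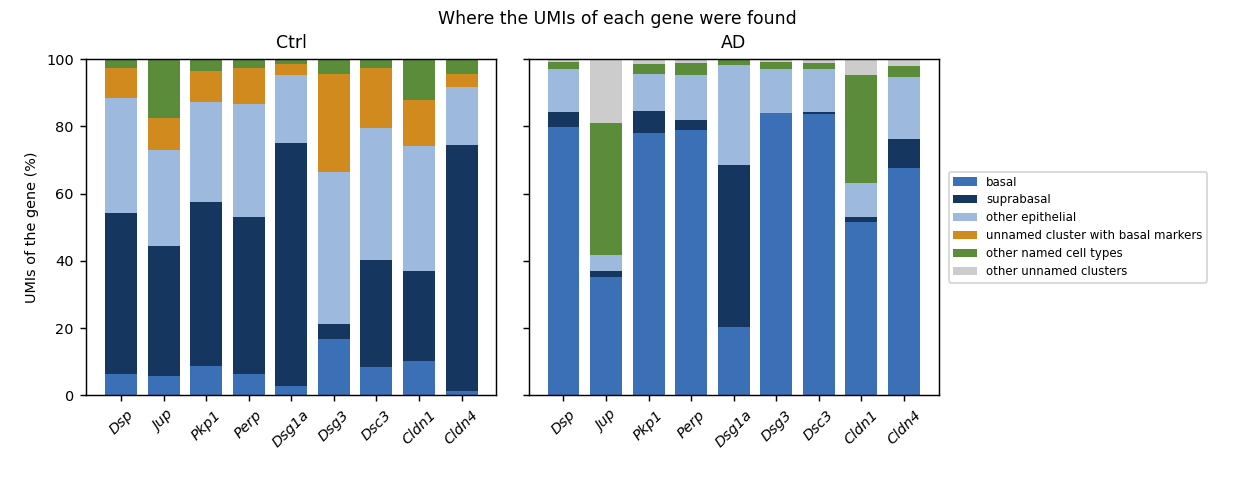
Where the UMIs of each gene were found, as percentages of its UMIs in the kept cells of Ctrl (left) and AD (right). Bars are divided into basal, suprabasal and other epithelial cells, the unnamed cluster with basal markers, other named cell types and other unnamed clusters: in AD, other named cell types held 39.3% of the Jup and 31.9% of the Cldn1 UMIs.

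As percentages of the KC level, Jup and Cldn1 stood above the keratins outside the KCs in both libraries, and Dsg3 (2.62%) did so in Ctrl. In Ctrl, the other cell types had 5.07% of the KC level of Jup and 4.23% of that of Cldn1, while the 4 keratins reached at most 1.82%, and in AD the values were 13.7%, 7.72% and 1.97%. This order depends on the cells behind the KC level, which for Krt10 in AD were mostly 1 suprabasal cell. As a percentage of the level in basal KCs alone, Krt10 exceeded Cldn1 in both libraries, Dsg3 in Ctrl and Jup in AD. It did not exceed Jup in Ctrl. In Ctrl, Krt10 was at 86.7 CPM in the other types and 1151 CPM in basal KCs, and Cldn1 at 9.87 and 232 CPM. Jup, whose product also serves endothelial junctions, was at 148 CPM in the 358 lymphatic endothelial cells of Ctrl and at 149 CPM in the 368 of AD, with a UMI in 49.2% and 53.8% of them, against 29.2 and 33.2 CPM in fibroblasts (dFBs). Cldn1 was at 366 CPM (150 UMIs; 310 to 430 CPM) in 65 AD basophil-like cells, with a UMI in 56.9% of them, which is above the 117 CPM of AD basal KCs. Ctrl had fewer than 20 such cells, and no level is given for them. Cldn1 was also found in dendritic cells, at 80.6 CPM in the 500 cells of Ctrl and at 52.0 CPM in the 133 of AD, and in Schwann cells, at 67.7 and 52.1 CPM, while dFBs had 5.42 and 4.13 CPM. Perp was at 110 CPM in the AD basophil-like cells (45 UMIs) and 4.62 CPM in AD dFBs.

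For the hair follicle of Ctrl skin, levels are given for 3 classes. In the outer root sheath (371 cells) Dsg1a was at 60.2 CPM, Cldn4 at 2.80 CPM, Dsp at 1123 CPM and Dsc3 at 544 CPM. In the upper follicle (170 cells) Dsp was at 4108 CPM, Dsg1a at 878 CPM, Cldn4 at 114 CPM and Cldn1 at 335 CPM. In the follicle matrix and inner sheath (361 cells) Dsp was at 655 CPM, Dsc3 at 367 CPM, Dsg1a at 63.3 CPM and Cldn4 at 13.05 CPM. Dsp was close to its suprabasal level of 4314 CPM in the upper follicle, and Dsg1a and Cldn4 lay between their basal and suprabasal levels there.

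The genes whose levels went most alike with each member were sought over 31 groups of cells (a cell type in 1 library, at least 30 cells) among 8832 genes, as Pearson's r of log2(CPM + 1). The groups share libraries and most are not epithelial, so that r mainly reflects KCs against other cells and is given without a test. Dsp went with Dsc3 and Serpinb5 (both 0.98), Dsc3 with Serpinb5 and Dsp (both 0.98), and Pkp1 with Serpinb5 (0.98) and Rab25 (0.97). Perp went with Trim29 and Sfn (both 0.96) and Jup with Adgrf4 and Ppp1r13l (both 0.86). Dsg1a had Pof1b (0.96) and Psapl1 (0.95) as its closest genes, and Dsg3 had Krt17 (0.89) and Fam167a (0.88). Cldn4 went with Clic3 (0.95) and the protease gene Klk7 (0.95), and Cldn1 with Nfe2l3 (0.80) and Tfap2c (0.79). Among the members, r was lowest for Cldn1 and Dsp, 0.64, and highest for Dsp and Dsc3, 0.98.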

How the data were processed

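Dorsal skin was profiled as 10x 3′ single-cell libraries, 1 per condition. The authors deposited, for each library, UMI counts per gene and barcode without normalization. The header of the tables names Cell Ranger 5.0.0, the submitters' processing notes name Cell Ranger 3.1.0, Seurat 5.0 and mm10, and the label and the methods differ in the collagenase used. The deposited tables were unfiltered for gene number and mitochondrial share, so barcodes were kept if they had 200 to 6000 genes and if 13 mitochondrial genes took at most 10% of their UMIs. The libraries were clustered jointly in scanpy 1.11.5, without batch correction (leidenalg 0.10.2, scikit-learn 1.9.0, scipy 1.17.1, numpy 2.4.6, pandas 2.3.3, anndata 0.12.19, matplotlib 3.10.9, Python 3.11.15). From 2000 variable genes, after 57 junction genes had been left out, 30 principal components and 20 neighbours gave 36 Leiden clusters (resolution 1, seed 0), and epithelial cells were clustered again into 19 sub-clusters.

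Clusters were named from 22 marker lists when at least 3 markers counted, that is, had a UMI in at least 10% of cells and a CPM, with 10 added, at least 2 times the lower quartile over clusters. Where markers of another type outnumbered its own among the 10 leading genes, a cluster stayed unnamed. The rule had 2 versions, and the first had named the fibroblast-led and T-cell-led sub-clusters suprabasal. Scrublet called 441 doublets (3.87%) in Ctrl and 1 in AD (0.012%), so it did not work in AD, and called doublets were left out as an alternative only.

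Ratios have exact conditional binomial, sums exact Poisson and shares exact Clopper-Pearson 95% intervals. For a share of 0 the limit is that of 3 counts. Thinned shares are the expectation at 1000 UMIs per cell, and shallower cells were left out. A gene was past the limit when log2 of the ratio, with 1 CPM added, was at least 1 or at most -1 and it had at least 10 CPM in either group. Classes with fewer than 20 cells gave no value. The calculation of ratios was checked on counts simulated without variation between cells or libraries. This covers the arithmetic and counting error only. Promoters and their sequences are from RefSeq. The rule for named genes took the 9 members, the 3 most abundant genes of each list in KCs, list genes past the limit between the libraries, and the 2 genes most alike to each member, and some of the list genes it took are not reported here. The members and lists were chosen with earlier results of these data known.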

Additional observations from a re-analysis of the deposited data

Results flagged for a closer look

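Dsg3 and Jup had opposite signs in AD over Ctrl in the 2 comparisons split by Sox9, Lhx2 and Tbx1. In the one with these genes, the 299 Ctrl cells were mostly outer root sheath cells. The 186 AD cells were of the Dkk3-led basal sub-cluster. Dsg3 was lower in AD among basal cells without Sox9, Lhx2 and Tbx1, a log2 ratio of -1.37 (-1.61 to -1.13), and slightly higher among cells with these genes, 0.23 (0.05 to 0.42). Jup had ratios of -0.33 (-0.47 to -0.19) and 0.27 (0.11 to 0.43) in the same comparisons. The difference between the comparisons was not tested, since each has 1 library per condition.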

How the results depend on the processing

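The alternatives, on log2 ratios with 1 CPM added, changed the count of members past the limit in AD over Ctrl basal KCs as follows. The number lower was 4 in place of 2 (Dsg1a, Dsc3, Pkp1 and Cldn1) with the mean of each cell's CPM and with resolution 2.0, 1 with the junction genes put back, and 5 without called doublets. It was 3 with every deposited barcode (Pkp1 added) and, in alternatives chosen after seeing the data, with the level of other cell types subtracted (Cldn1 added) and in cells without (Dsg3 added) and with (Pkp1 added) Sox9, Lhx2 and Tbx1, and Pkp1 was past the limit in 5 of 14 alternatives. The number higher was 0 in place of 1 with the junction genes put back, with every deposited barcode, without called doublets and, in an alternative chosen after seeing the data, in cells with Sox9, Lhx2 and Tbx1. Cldn4 was reversed to -0.94, -0.71 and -1.36 in the first 3 of these, in which the Cyp24a1-led cells were mostly not basal, and the Ctrl basal cells were mostly others in the first. In suprabasal over basal Ctrl KCs, clustering each library alone left 26 suprabasal cells and gave 2 members higher and 2 lower, with Pkp1 reversed to -0.64. Cldn4, Dsg1a and Dsg3 were past the limit in 12 of 12 alternatives there, Dsp, Jup and Perp in 11 and Pkp1 in 9. The median percent of a member's UMIs in epithelial cells was 85.4 in Ctrl and 97.3 in AD with every barcode, and 88.7 in Ctrl without called doublets, in place of 86.7 and 95.6. Thinned to 1000 UMIs, the median share of cells with a UMI was 26.9% in Ctrl basal KCs, 14.1% in AD basal KCs, 0.773% in other Ctrl cells and 0.146% in other AD cells. The cause of these changes was not tested. Resolution 0.5 and the stricter cell filter left 2 and 4 Ctrl basal cells, the junction genes put back left 11 Ctrl suprabasal cells, and each library alone left 0 AD basal cells, so these gave no value. Each library alone named 43 AD cells suprabasal, of which 36 were basal in the reported analysis and which had Krt10 at 21.9 CPM. No paired analysis was possible because each condition has 1 library. Depth limits Cldn4 in Ctrl basal KCs (29 UMIs) and Dsg1a in AD basal KCs (23 UMIs).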
